A study of Oryza sativa with 2 samples.

Results

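The ferritin, nicotianamine synthase, iron transporter and IRO2 loci of rice were examined in leaf RNA of wild-type and *wlp2s* seedlings. They were taken from a list of 9 locus IDs, and 6 of the 9 have a row among the 26715 loci of the deposited expression table. The 6 comprise 2 loci of iron storage and 4 loci listed with the response to iron deficiency. Whether each of the 4 follows that response in leaves was not tested, and they are called deficiency loci after the list. The other 3 IDs, LOC_Os03g19427, LOC_Os02g43410 and LOC_Os02g43370, have no row in the table used here, and no level is given for them. Every model listed there has a count above 0 in at least 1 library. Whether the 3 had no reads or are missing for another reason cannot be told apart. Sums over the deficiency loci therefore cover only those with reads.

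The table holds 1 library of wild-type *japonica* cv. Zhonghua11 and 1 library of a mutant from an EMS-induced population of that cultivar. The columns of the mutant are headed *wlp2s*, an allele of *White Leaf and Panicle 2* (*WLP2*), which encodes a protein associated with the plastid-encoded RNA polymerase. Both groups were seedlings on MS medium in a growth chamber at a constant 32 °C, with 12 h of light and 12 h of dark at a light intensity of 300 μmol m-2 s-1. Neither their age nor the number of plants per library is given in the sources used here. The paper describes seedlings of both mutants at 32 °C as white and gradually dying, with fewer and less developed chloroplasts in some leaf cells. With 1 library per genotype the spread within a genotype is unknown, so differences are described without replicates and without p-values. The *WLP2* transcript (LOC_Os01g63220) was not lower in the library headed *wlp2s*, with 126 counts and 6.61 RPKM in wild-type beside 178 counts and 9.10 RPKM. The paper reports by qRT-PCR that *WLP2* mRNA was lower in *wlp2s* than in wild-type, under normal and high temperature alike. The level of *WLP2* in these libraries runs in the opposite direction, so it gives no support to the label. Most leaf markers, given below, were lower in the library headed *wlp2s*, and the paper reports lowered photosynthesis genes in both mutants. The allele is a single-base change that these data do not show. Whether the columns carry the right genotype was therefore not tested. Below, *wlp2s* stands for the library labelled so, and each direction rests on that label.

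Iron that a leaf does not use at once is kept in ferritin, a protein shell that stores ferric iron, in plants mainly inside plastids. In this way free iron, which drives the formation of hydroxyl radicals, is kept low. Grasses take up iron as ferric chelates of phytosiderophores, which are made from nicotianamine, the product of nicotianamine synthase, and rice also takes up ferrous iron through transporters of the ZIP family. The bHLH factor IRO2 activates many of these genes when iron is short, and much of that response takes place in roots. Ferritin and the deficiency genes are commonly read as opposite ends of iron status.

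Levels are given as estimated read counts and as RPKM, reads scaled to transcript length and to library depth, each summed over the transcript models of a locus. The wild-type library held 9080323 counts and the *wlp2s* library 9327778. The difference of a locus is that of log2(RPKM + 1), *wlp2s* minus wild-type, and a locus whose difference reaches 1 or -1 is called past the size rule. Ratios are those of counts scaled to depth, with exact 95% binomial intervals. These intervals cover counting error only, so an interval that leaves out 1 does not show that the genotypes differ. Loci that reached 1 RPKM in either library were examined, which were 18639 loci and 4 of the 6 listed ones.

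Ferritin transcripts were abundant in both libraries and moderately higher in *wlp2s*, whereas transcripts of the deficiency loci were scarce in both. None of the 6 loci passed the size rule, under which 2.80% of all loci examined passed, 1.79% higher and 1.01% lower. LOC_Os03g19420 and LOC_Os03g46470 are not among the loci examined. Both lay under 1 RPKM in both libraries, where the size rule cannot be reached. All 6 differences lay above 0, against 50.3% of all loci examined. With counts this low at 4 of the 6, that common sign is a description and not a result about them.

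**Figure D1:**
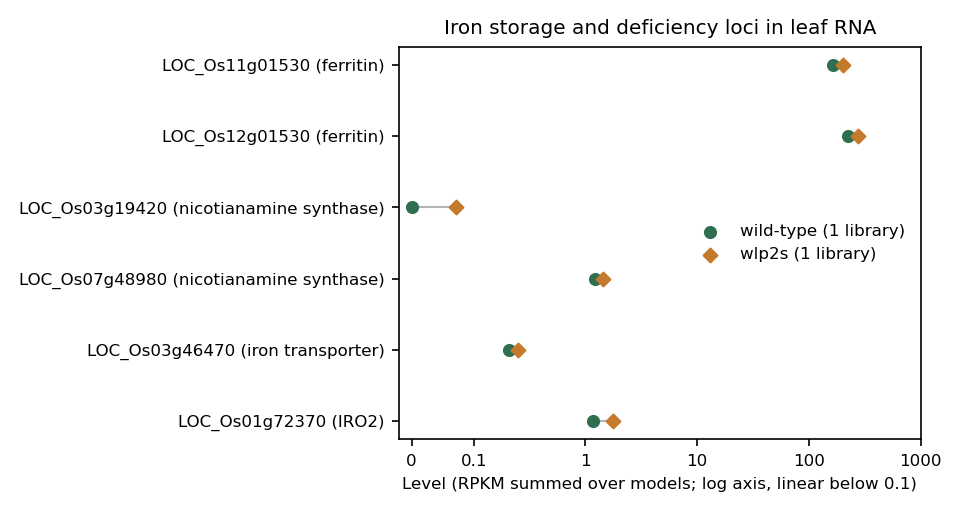
Level of each listed locus that has a row, in RPKM summed over its models, on a log axis that is linear below 0.1, with circles for the wild-type library and diamonds for the *wlp2s* library. The ferritin loci lie between 163 and 276 RPKM, while the 4 deficiency loci lie between 0 and 1.75 RPKM, and the symbols of each locus lie close together except at LOC_Os03g19420, which has 0 counts and 1 count.

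Both ferritin loci are annotated as ferritin 4, after the Arabidopsis protein, with GO terms of iron ion transport and cellular iron ion homeostasis. LOC_Os11g01530, with 2 models, reached 163 RPKM in the wild-type library and 203 RPKM in the *wlp2s* library. LOC_Os12g01530, with 3 models, reached 226 RPKM in the wild-type library and 276 RPKM in the *wlp2s* library. Both loci thus stood higher in *wlp2s*, and both ranked among the most abundant transcripts of the leaf. In wild-type, 1.58% of all loci had a higher RPKM than LOC_Os11g01530 and 1.03% a higher one than LOC_Os12g01530, and in *wlp2s* these shares were 1.24% and 0.868%.

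The ratio of *wlp2s* to wild-type was 1.24 at LOC_Os11g01530 (interval 1.17 to 1.31) and 1.22 at LOC_Os12g01530 (1.16 to 1.28). Each ratio lies within the interval of the other locus. Their differences on the log2(RPKM + 1) scale were 0.31 and 0.29. These values are not extreme among loci, since 17.1% and 18.7% of all loci examined had a larger difference. Among the 886 loci that reached 100 RPKM in either library, where counting error is small, 17.2% lay above LOC_Os11g01530 and 19.5% lay above LOC_Os12g01530. The lower and upper quartiles of those 886 differences were -0.16 and 0.24, and 15 of the 886 loci passed the size rule.

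The counts of both ferritin loci are fractions, as arise where a read that matches several models is divided between them. LOC_Os11g01530 had 2084.8 counts in the wild-type library and 2657.97 in the *wlp2s* library. For LOC_Os12g01530 these were 3285.2 and 4109.03 counts. Added together, they give the whole numbers 5370 and 6767 (tolerance 0.001). Of the 10814 other loci with fractional counts, 2 complete those of LOC_Os11g01530 to whole numbers in both libraries, namely LOC_Os12g01530 and 1 locus of another annotation. For LOC_Os12g01530, LOC_Os11g01530 is the 1 locus that does so. It thus appears that reads were divided between both ferritin loci, which are not treated as separate results.

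The split within the pair was much the same in both libraries. LOC_Os11g01530 held 38.8% of the pair's counts in wild-type and 39.3% in *wlp2s*, beside the 40% that its 2 of the 5 models would hold if every model had the same count. How far the split reflects transcription of each locus, and how far the way reads were divided, cannot be told apart. The sum of both loci does not depend on how reads were divided between them. It stood at 591 CPM (counts scaled to library depth) in wild-type and 725 CPM in *wlp2s*, 1.23-fold higher (1.18 to 1.27), and at 389 and 478 summed RPKM.

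The single models showed the same direction. At LOC_Os11g01530.1 the level was 77.9 RPKM in wild-type and 96.5 RPKM in *wlp2s*, and at LOC_Os11g01530.2 it was 85.4 and 106 RPKM. At LOC_Os12g01530.1, LOC_Os12g01530.2 and LOC_Os12g01530.3 the wild-type levels were 75.5, 79.6 and 70.7 RPKM. The *wlp2s* levels of these 3 models were 91.0, 95.7 and 89.0 RPKM. Each of the 5 models was thus higher in *wlp2s*, with ratios from 1.20 at LOC_Os12g01530.2 to 1.26 at LOC_Os12g01530.3. Since the models appear to share reads, the 5 ratios are not treated as independent.

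**Figure D2:**
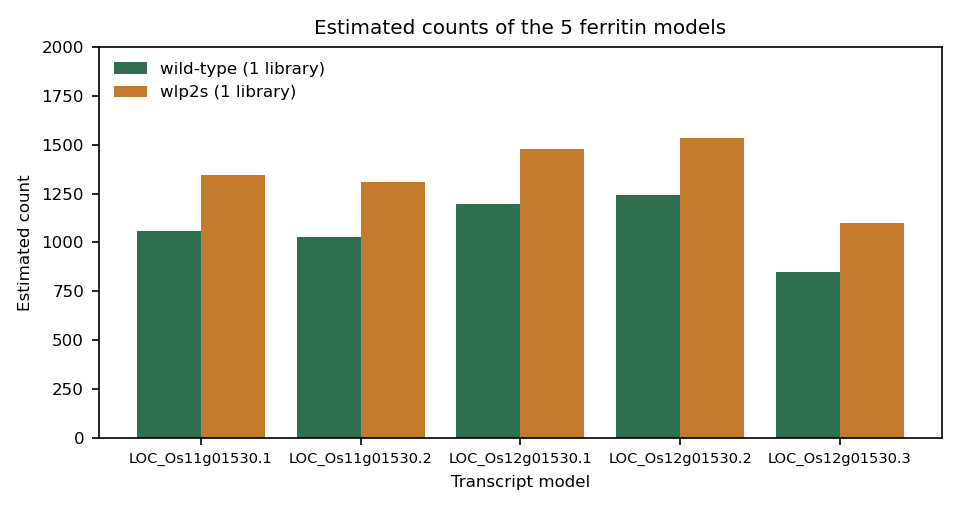
Estimated count of each ferritin transcript model, with 1 bar for the wild-type library and 1 bar for the *wlp2s* library and an axis that starts at 0. All 5 models are higher in *wlp2s*, with the most counts at LOC_Os12g01530.2 and the fewest at LOC_Os12g01530.3.

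Nicotianamine synthase joins molecules of S-adenosylmethionine into nicotianamine, a metal chelator that also serves transport of iron within the plant. LOC_Os07g48980, annotated as nicotianamine synthase 3, had 18 counts in wild-type and 22 counts in *wlp2s*, at 1.22 and 1.45 RPKM. The ratio was 1.19 (0.609 to 2.35), an interval that holds equal levels and a doubling alike. LOC_Os03g19420, with the same annotation, had 0 counts in wild-type and 1 count in *wlp2s*. Both values are under the floor of 3 counts that a count of 0 allows, which is 0.330 CPM in wild-type and 0.322 CPM in *wlp2s*, so no ratio is given. Transcripts of nicotianamine synthase were thus low at 1 locus and not detectable at this depth at the other, in either genotype.

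LOC_Os03g46470, listed as an iron transporter and annotated as zinc transporter 10 precursor, a name of the ZIP family of divalent metal transporters, had 2.83 counts in wild-type and 3.5 counts in *wlp2s*. Its levels were 0.207 and 0.249 RPKM, and in wild-type 82.7% of all loci had a higher RPKM. The ratio of 1.20 has an interval from 0.180 to 9.03, and at this depth no difference could be detected. Its counts are fractions, and no locus of the same annotation completes them to whole numbers.

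LOC_Os01g72370, listed as IRO2 and annotated as a bHLH DNA-binding protein, had the largest ratio among the 5 loci for which one is given. It had 34.2 counts in wild-type and 53.4 counts in *wlp2s*, at 1.17 and 1.75 RPKM. The ratio was 1.52 (0.973 to 2.41), and the interval includes equal levels. Of its 3 models, LOC_Os01g72370.1 was at 0.497 RPKM in wild-type against 0.733 RPKM in *wlp2s*, and LOC_Os01g72370.3 was at 0.573 and 0.995 RPKM. LOC_Os01g72370.2 was the exception, with 0.102 RPKM in wild-type and 0.0248 RPKM in *wlp2s*, both from fewer than 3 counts. Taken alone, the model with the most counts, LOC_Os01g72370.1, had a difference of 0.21 on the log2(RPKM + 1) scale.

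On the log2(RPKM + 1) scale, which understates changes at such low levels, the difference of LOC_Os01g72370 was 0.34 and that of LOC_Os07g48980 was 0.14. Among all loci examined, 15.1% had a larger difference than LOC_Os01g72370 and 31.6% a larger one than LOC_Os07g48980. Among the 2311 loci whose higher RPKM lay from 1 to under 2, these shares were 22.1% and 38.8%. Differences of their size were therefore common among loci of the same level.

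**Figure D3:**
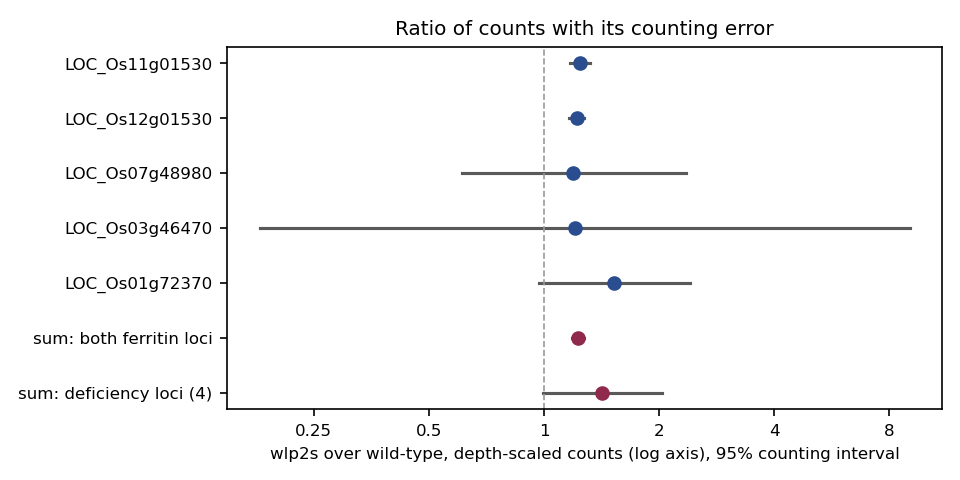
Ratio of *wlp2s* to wild-type in depth-scaled counts on a log axis, with exact 95% binomial intervals that cover counting error only, for the 5 loci with a ratio and for 2 sums. The intervals of the ferritin loci and of their sum lie above 1 and are narrow (the bar of the sum lies within its point), while those of LOC_Os07g48980, LOC_Os03g46470, LOC_Os01g72370 and the sum of the deficiency loci include 1.

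Storage was then set against the loci listed for deficiency, whose response in leaves was not tested, within each library. The 4 deficiency loci together had 55 counts in wild-type and 79.9 counts in *wlp2s*, 1.41-fold higher (0.991 to 2.03). Most of these counts came from LOC_Os01g72370, and without it the ratio was 1.24 (0.671 to 2.31). For each count of the deficiency loci there were 97.6 ferritin counts in wild-type and 84.7 in *wlp2s*. The second ratio is 0.867 of the first, with an exact conditional interval from 0.602 to 1.24 on counts rounded to whole numbers. In summed RPKM, ferritin exceeded the deficiency loci 150-fold in wild-type and 136-fold in *wlp2s*. A shift of the balance between storage and deficiency transcripts was thus not detectable at this depth, and shifts inside that interval cannot be told from none. With nicotianamine synthases alone as the deficiency loci, the second ratio was 0.986 of the first (0.501 to 1.91).

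Other genes of iron handling were followed in 15 lists formed from the words of the annotation, without the listed loci. Of their 202 loci past the filter, 4 were higher and 2 were lower by the size rule, beside the 1.79% and 1.01% of all loci, and their median difference was -0.01 beside 0.00 over all loci. These lists are families by name, and a family such as MATE efflux or bHLH holds many genes with no part in iron handling. Of all loci examined, 39.0% had fractional counts, so reads may be divided among loci of a list as well. Past the size rule this holds for LOC_Os02g46850, LOC_Os07g04990 and LOC_Os02g07310.

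For ZIP-type transporters, ferric reductases and NRAMP-type loci, the annotation does not show which act in uptake. Of 10 ZIP-type loci 0 passed the size rule, and the median of the 10 was 0.11. LOC_Os07g12890, annotated as zinc transporter 1 precursor, came closest, with 24.3 RPKM in wild-type and 45.3 RPKM in *wlp2s*, a ratio of 1.86 (1.62 to 2.14). LOC_Os03g29850, annotated as zinc transporter 11 precursor, was at 13.8 and 21.9 RPKM. These ZIP-type loci were far more abundant in leaves than LOC_Os03g46470 of the same family. Of 3 loci named after ferric reductases, enzymes that reduce ferric to ferrous iron, 0 passed the size rule. Their median was -0.83, or -0.47 over all 4 loci of the list without the filter. LOC_Os01g61880 was at 51.7 and 28.7 RPKM. It is annotated only as ferric reductase-like transmembrane component family protein, a name that does not show whether it reduces iron. LOC_Os04g36720, annotated as ferric reduction oxidase 7, was at 478 and 443 RPKM. Of 9 loci named after NRAMP transporters of divalent metals, 0 passed, with a median of -0.01. The name does not show whether each of the 9 carries metals. LOC_Os12g39180, with the largest difference among those of the 9 that reached 5 RPKM, was at 5.29 and 6.54 RPKM.

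For storage outside ferritin, the vacuolar iron transporters are of interest, since they load iron into the vacuole. Of 3 loci 0 passed the size rule, and they did not share a direction. LOC_Os09g23300 was at 18.8 RPKM in wild-type against 9.62 RPKM in *wlp2s*, and LOC_Os04g38940, with the same annotation, was at 12.6 and 16.8 RPKM. LOC_Os06g01440 was at 26.4 and 21.5 RPKM. Of 3 loci named after iron regulated metal exporters of Arabidopsis, LOC_Os06g36450 (iron regulated 2) was lower by the size rule, at 6.86 RPKM in wild-type against 2.19 RPKM in *wlp2s*. The other 2 of the 3 had differences of 0.57 (LOC_Os05g04120) and 0.14 (LOC_Os12g37530, at 38.2 and 42.2 RPKM). The median was 0.14, or -0.58 over loci that reached 5 RPKM, and the summed RPKM of the list was 1.02 times that of wild-type. Of 7 oligopeptide transporters (median 0.31) 1 was higher, LOC_Os02g46850, at 4.16 and 9.45 RPKM.

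For the enzymes before and after nicotianamine, 0 of 5 S-adenosylmethionine synthetase loci passed, although all 5 differences lay above 0 (median 0.21). The largest was that of LOC_Os01g10940, at 10.1 and 14.5 RPKM. Its counts are fractions, so reads may be divided within the family, and the 5 differences are not treated as separate results. Of 6 loci of the tyrosine transaminase family, to which nicotianamine aminotransferase belongs, 0 passed (median 0.03), and LOC_Os02g19970 was at 4.69 and 6.97 RPKM. Of 28 NAD(P)-linked oxidoreductases, the family of the enzyme that completes deoxymugineic acid, 1 was lower (median 0.01). That locus, LOC_Os07g04990, was at 190 RPKM in wild-type against 54.9 RPKM in *wlp2s*, and its annotation does not show whether it acts on phytosiderophores.

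Among users of iron, 1 of 10 ferredoxin loci passed the size rule, and the median was -0.05. LOC_Os01g64120, annotated as ferredoxin 3, was at 7.89 RPKM in wild-type against 23.6 RPKM in *wlp2s*. LOC_Os03g61960, with the same annotation, was at 52.8 and 80.9 RPKM, a ratio of 1.53 (1.36 to 1.73). The abundant LOC_Os08g01380 had a difference of -0.26, at 1208 and 1005 RPKM. Of 18 loci with names of Fe-S cluster assembly, 1 passed (median 0.02). It was LOC_Os02g07310, at 0.479 and 2.15 RPKM, and its annotation joins the names of SufD and of a polynucleotidyl transferase. LOC_Os02g45070, with the same annotation, was at 27.8 and 38.0 RPKM. Of 2 iron superoxide dismutases 0 passed, with 26.2 and 32.6 RPKM at LOC_Os06g02500 and 39.9 and 36.3 RPKM at LOC_Os06g05110.

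Among regulators, 1 of 53 bHLH loci other than LOC_Os01g72370 passed, LOC_Os02g49480, at 1.64 and 4.73 RPKM, and the median was 0.02. LOC_Os02g39140 (8.44 and 17.3 RPKM) and LOC_Os01g11910 (5.45 and 11.1 RPKM) came close to the size rule. The differences of the 53 loci ran from -0.92 to 1.12, and 28 of the 53 lay above 0. The 3 loci annotated as zinc finger protein-related had differences from -0.29 (LOC_Os05g47780, at 10.9 and 8.67 RPKM) to -0.14, and 0 passed. Of 42 MATE efflux loci 0 passed, with a median of -0.15, and LOC_Os03g62270 was at 4.75 and 7.72 RPKM.

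**Figure D4:**
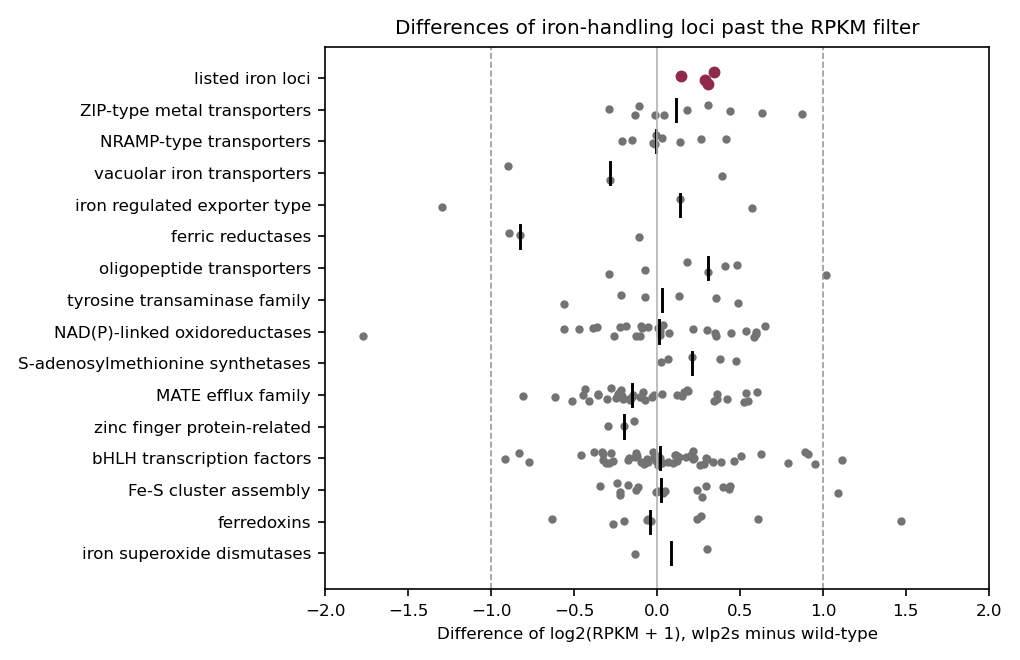
Difference of log2(RPKM + 1), *wlp2s* minus wild-type, for the 4 listed loci past the filter and for the loci of the 15 other lists, with 1 point per locus, a black bar at the median of each list and dashed lines at the size rule. The 4 listed loci lie between 0.14 and 0.34, and 6 points of the other lists lie beyond the dashed lines, 4 to the right and 2 to the left.

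The tissue label was checked against markers by annotation. The 19 leaf markers (small subunit of Rubisco, light-harvesting proteins and carbonic anhydrase) had a summed level of 21821 RPKM in wild-type and 20343 RPKM in *wlp2s*, and 0 of them were at 0. The 36 root markers, chosen by words such as UPF0497 and high affinity nitrate transporter, had a summed level of 166 and 169 RPKM. Of these, 2 were at 0 counts in wild-type and 4 in *wlp2s*, while 23 of the 36 passed the filter. Their annotation does not show which are particular to roots. Of the leaf markers past the filter 1 of 19 was lower by the size rule and 0 were higher, with a median difference of -0.23. Of the 19 differences, 5 lay above 0. By qRT-PCR the paper reports lowered photosynthesis genes in both mutants, such as *rbcS* and *Oscab1R*. The leaf markers are thus no separate check of the tissue, and whether they bear on the library label was not tested. The part of the leaf marker difference in the ferritin values was not tested. In RNA of whole leaves, more cells of a type and more RNA per cell cannot be told apart.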

How the data were processed

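Leaf RNA was sequenced single-end on an Illumina Hiseq2500. TopHat, Cufflinks and Cuffdiff appear in the submitters' processing notes, and the counting tool, genome build and annotation release are not given in the sources used here. The authors deposited estimated counts per transcript model, unnormalized and in part fractions, and beside them RPKM values. Each of the 36450 models listed has a count above 0 in at least 1 library. A second table holds the authors' comparison (fold change, P-value, FDR) and 4 columns of values per library under other names, and was not used.

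Models were summed per locus. No test was made, with 1 library per genotype. Fractional counts entered the beta quantiles of the Clopper-Pearson interval unrounded. No molecular identifiers are described, so copies of a molecule may have been counted repeatedly. The members and lists were chosen with earlier results of these data known, and list words were fitted to the annotation. All listed loci were named. The rule for each other list was up to 4 loci that reached 5 RPKM, by the size of their difference, and the text gives the first 1 to 3 of them in that order. Outside the rule, LOC_Os02g49480, LOC_Os02g07310 and LOC_Os05g04120 were named after their values were seen, and of the marker lists no locus is named. Gene descriptions are those of the table. Of the 9 listed IDs, 0 matched the RefSeq gene table, so no sequences, promoter motifs or protein identities are given.

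Python 3.11.15, numpy 2.4.6, pandas 2.3.3, scipy 1.17.1 and, for TMM factors, edgeR 4.0.16 were used. Intervals and calls were tested first on simulated whole counts with counting error only, for loci that averaged at least 5 RPKM. That test does not cover low or fractional counts, small changes or the spread between plants. Alternatives were another pseudocount, filter, scaling, threshold and choice of models or loci.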

Additional observations from a re-analysis of the deposited data

How the results depend on the processing

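Of the listed loci, 0 passed the size rule under a pseudocount of 0.1 or 5, no filter or an RPKM of at least 5. The same held under TMM scaling, median ratio scaling and a threshold of 1.5-fold in RPKM + 1. LOC_Os01g72370 did not reach that threshold, with a difference of 0.34 on the log2(RPKM + 1) scale, although its count ratio was 1.52. All loci past the size rule were more affected. Their number higher went from 333 to 779 with a pseudocount of 0.1, 81 with 5, 187 with an RPKM of at least 5, 1222 at 1.5-fold and 171 with whole-number counts only, the last chosen after the data were seen. Their number lower went from 189 to 497, 39, 82 and 783 under the first 4 of these. The last gave 128. Both scalings moved all differences by less than 0.01 on the log2 scale. The difference of LOC_Os01g72370 ran from 0.13 with a pseudocount of 5 to 0.54 with 0.1. The summed ferritin ratio stayed within its interval under both scalings, and so did the deficiency sum and the balance of storage and deficiency under every choice of loci. No replicate could be left out, since each genotype has 1 library. No paired analysis was possible because each genotype has 1 library. Depth limits LOC_Os03g19420 and LOC_Os03g46470, with at most 3.5 counts.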

Other observations

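The ferritin loci carry the same number on chromosomes 11 and 12, and near the start of these chromosomes 10 pairs of loci share both number and annotation. All 10 have fractional counts, and 7 of the 10 sums, that of ferritin included, are whole numbers in both libraries. The summed ratios of the 9 other pairs ran from 0.554 to 2.43, with a median of 1.16 and 5 of the 9 above 1. The pair annotated as phototropin 1 (LOC_Os11g01140 and LOC_Os12g01140) is the nearest to ferritin in counts, and its sum was 1.16-fold higher in *wlp2s* (1.12 to 1.20). These ratios are given as values, without replicates.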
